A study of Mus musculus with 6 samples.

Results

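Immediate early genes of the NR4A, EGR and AP-1 families were examined in mouse CD8 T cells with a conditional knockout of the glucose-responsive transcription factor MondoA. The set was chosen by gene symbol and holds 10 of the 57010 genes counted: Nr4a1, Nr4a2, Nr4a3, Egr1, Egr2, Egr3, Fos, Fosb, Jun and Junb. RNA sequencing was done on sorted naive CD8 T cells of spleen and lymph node from C57BL/6 mice aged 8 weeks, after 24 hours of stimulation through CD3 and CD28. WT stands for 3 libraries from MondoAfl/fl mice, which carry the floxed gene without Cre. KO stands for 3 libraries from MondoAfl/flCD4cre mice, which carry the same floxed gene and a Cre active from the thymus onwards. Only the KO mice carried Cre, so effects of Cre and of MondoA loss cannot be told apart. The labels give replicate numbers but no mouse for each, and the p-values therefore cover only how these libraries varied, in part perhaps for technical reasons. No unstimulated library was analysed here, so the values are levels after stimulation and not inductions.

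These genes encode transcription factors whose transcription starts within minutes of T cell receptor engagement, without new protein synthesis. The calcium and ERK branches of the signal act on factors already present, such as SRF with its ETS-type partners, CREB, MEF2 and NFAT, and the short-lived transcripts then decline quickly. NR4A proteins are orphan nuclear receptors that mark receptor signal strength and, with EGR2 and EGR3, are known for restraint of T cells under persistent stimulation. FOS and JUN proteins pair through leucine zippers to form AP-1, which binds with NFAT at cytokine genes.

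Promoter windows of the set show which sites of this signalling lie close to the start of transcription. RefSeq windows on GRCm38.p6, each holding 250 bases before and 50 bases after an annotated start, covered 8 of the 10 genes in 12 windows, 5 of them for Egr2. Windows of Egr1 and Egr3 were not analysed here. Each of the 4 windows below belongs to a gene whose values are described further on, and is written 5′ to 3′ on the strand of the gene. Capitals mark matches, on either strand, to the CArG box bound by SRF, the cyclic AMP response core TGACGT, the EGR site GCGNGGGCG and the TATA box TATAAA.
Nr4a3, chr4:48045055-48045354, plus strand: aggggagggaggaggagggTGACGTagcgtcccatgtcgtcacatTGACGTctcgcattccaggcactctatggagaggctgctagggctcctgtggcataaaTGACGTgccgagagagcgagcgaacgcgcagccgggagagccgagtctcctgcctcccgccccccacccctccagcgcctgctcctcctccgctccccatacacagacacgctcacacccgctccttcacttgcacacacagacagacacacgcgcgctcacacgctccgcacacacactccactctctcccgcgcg
Egr2, chr10:67537680-67537979, plus strand: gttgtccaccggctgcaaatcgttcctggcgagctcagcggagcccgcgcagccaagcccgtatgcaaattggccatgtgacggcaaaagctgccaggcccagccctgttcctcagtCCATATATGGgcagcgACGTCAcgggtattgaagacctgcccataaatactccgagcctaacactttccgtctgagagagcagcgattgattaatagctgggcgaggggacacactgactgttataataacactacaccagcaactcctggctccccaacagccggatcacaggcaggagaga
Fos, chr12:85473640-85473939, plus strand: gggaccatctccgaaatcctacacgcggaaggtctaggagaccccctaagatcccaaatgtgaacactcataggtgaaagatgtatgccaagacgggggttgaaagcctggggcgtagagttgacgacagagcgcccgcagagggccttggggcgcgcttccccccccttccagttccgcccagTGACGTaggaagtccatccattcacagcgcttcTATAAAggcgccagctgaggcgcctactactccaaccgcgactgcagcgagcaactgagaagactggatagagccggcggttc
Nr4a1, chr15:101266596-101266895, plus strand: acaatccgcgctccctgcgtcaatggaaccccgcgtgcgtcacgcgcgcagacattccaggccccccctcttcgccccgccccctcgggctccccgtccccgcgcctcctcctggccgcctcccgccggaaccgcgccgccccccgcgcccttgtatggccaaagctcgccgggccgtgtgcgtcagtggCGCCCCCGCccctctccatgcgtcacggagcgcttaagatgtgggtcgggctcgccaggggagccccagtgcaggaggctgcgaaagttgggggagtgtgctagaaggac

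The core site TGACGT occurred in 5 of the 12 windows, from Nr4a3, Fos and 3 overlapping windows of Egr2, against 7.51% of all 32851 promoter windows. Nr4a3 held it 3 times, at -231, -205 and -147 from the start. In Fos it lay at -66, ahead of a TATA box at -33. The CArG box was found in 4 of the 12 windows, all of Egr2 and at -133 in the window shown, against 1.63% of all windows. The EGR site stood in 3 of the 12 windows, those of Nr4a1 (at -60), Nr4a2 and Fosb, against 5.55% of all windows. The 3 overlapping windows of Egr2 share the same CArG box and core site, and so do not count as separate matches. The remaining CArG box, CCTTTTTTGG at -72 from another annotated start of Egr2, is a separate string. The E-box CACGTG, the core of the sites bound by MondoA with MLX, occurred in 1 of the 12 windows, a further annotated start of Egr2, against 7.15% of all windows. The bases just after this start, and after that of CCTTTTTTGG, were not found in a GENCODE M21 transcript of Egr2. The full site TGACGTCA (1.79% of all windows), the AP-1 site TGANTCA (7.81%) and the NR4A monomer site AAAGGTCA (1.51%) were in none of the 12. Each window of the set was rich in G and C, with a median of 62.3% against 52.7% over all windows. A match is a string of letters and does not show that a factor bound there.

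Exon number and AU-rich sequence were also compared with those of other genes. In the GENCODE M21 transcript with the longest coding part, Jun and Junb had 1 exon, Egr1, Egr2 and Egr3 had 2, Fos and Fosb had 4 and the NR4A genes had 8, against a median of 9 over the coding genes tested. The pentamer ATTTA, the core of AU-rich elements that speed messenger decay, occurred at a median of 2.57 per kb of 3′ untranslated region in the 10 genes, against 1.25 per kb over 11643 tested genes. Nr4a1 with 5.53 per kb and Fos with 4.91 per kb were the densest of the 10, and Fosb with 0.466 per kb was the sparsest. The longer core TATTTAT was present in 5 of the 10, against 28.1% of the tested genes.

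Total gene counts ran from 26150420 to 34447230 per library. The genotype check gave Mlxip, which encodes MondoA, at 121 to 142 CPM in WT and 79.5 to 92.6 CPM in KO. The log2 fold change of Mlxip was -0.58. Its adjusted p was 0.125 by the edgeR quasi-likelihood test, so it was not called, and 9.7e-05 by DESeq2. Mlxip reads thus remained in KO, and counts over the whole gene do not show how far the protein was lost. Here and below CPM is the read count scaled to library size after TMM. WT 3 and KO 2 held Xist at 765 and 647 CPM of unscaled library size, and the other 4 libraries between 0.374 and 1.71 CPM, and Xist is transcribed from the inactive X chromosome of females. The libraries of a group therefore did not all come from the same mouse. CD8 T cell identity was plain, with Cd8a between 456 and 687 CPM and Cd4 between 0.995 and 4.84 CPM. Markers of other cells were present at lower levels. Their summed CPM over 6 B cell genes was 247 to 386 in WT and 234 to 297 in KO, most of it Ighm, and over 6 tested myeloid genes 19.4 to 42.3 in WT and 15.8 to 27.9 in KO, with WT 3 highest in both. Gene by gene, the marker lists differed in direction, where 47.2% of all tested genes had a log2 fold change above 0. All 6 CD8 T cell genes were higher in KO (median log2 fold change 0.19). Lower were 6 of 6 B cell genes (-0.42), 5 of 6 myeloid (-0.69), 3 of 3 NK (-0.75), 3 of 3 CD4 T cell (-0.75) and 3 of 3 erythroid genes (-0.11). Some were lower by little, such as Nkg7, the most abundant NK gene, at -0.021 and Ighm at -0.076. Of the marker genes 0 were called by edgeR. DESeq2 called 1 of these marker genes, the NK gene Klre1, with an adjusted p of 4.4e-04 against 0.192 by the edgeR quasi-likelihood test. Klre1 was at 4.12, 3.17 and 5.05 CPM in the WT libraries and 1.09, 1.77 and 1.23 CPM in the KO libraries. Cells of these other types also transcribe immediate early genes, and their part in the results was not tested. In bulk RNA, fewer cells of a type and less RNA per cell cannot be told apart.

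After 24 hours the JUN genes stood far above the rest of the set. Levels between genes were compared as CPM per kb of annotated exon, taken over all 6 libraries. Junb was highest at 146 ± 11.9 CPM per kb (SD, n = 6), higher than 97.6% of the genes tested. Jun followed at 64.4 ± 13.4 CPM per kb (SD, n = 6), below Junb in all 6 libraries with no overlap of their ranges. Egr1 was the next, at 7.07 ± 2.06 CPM per kb (SD, n = 6), 9.11 times below Jun by the ratio of means. Nr4a3 at 6.14 ± 1.44 and Nr4a1 at 4.92 ± 0.702 CPM per kb (SD, n = 6 each) overlapped their upper neighbours in range, so the order of Egr1, Nr4a3 and Nr4a1 is not fixed by these libraries. Egr2 lay clear of both neighbours at 3.04 ± 0.548 CPM per kb (SD, n = 6). The lowest 4 were Fos (1.52 ± 0.311), Egr3 (1.40 ± 0.195), Fosb (1.01 ± 0.172) and Nr4a2 (0.861 ± 0.146), in CPM per kb (SD, n = 6 each), and each overlapped the next in range. Nr4a2, the lowest, still held from 78 to 123 reads per library, so none of the 10 was near the floor of detection.

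Among AP-1 genes, JUN transcripts far exceeded FOS transcripts. Jund, the constitutive JUN gene, stood at 52.4 ± 3.23 CPM per kb (SD, n = 6), and the 3 JUN genes together at 228 to 294 CPM per kb. The 4 FOS genes together reached 10.9 to 12.4 CPM per kb. Fosl2, the FRA-2 gene, made up most of that at 8.40 ± 0.620 CPM per kb (SD, n = 6). Fosl1 gave 0.740 ± 0.300 CPM per kb (SD, n = 6). Batf, a JUN partner of effector T cells, was at 17.4 ± 3.17 CPM per kb (SD, n = 6), above Fos in every library.

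**Figure D1:**
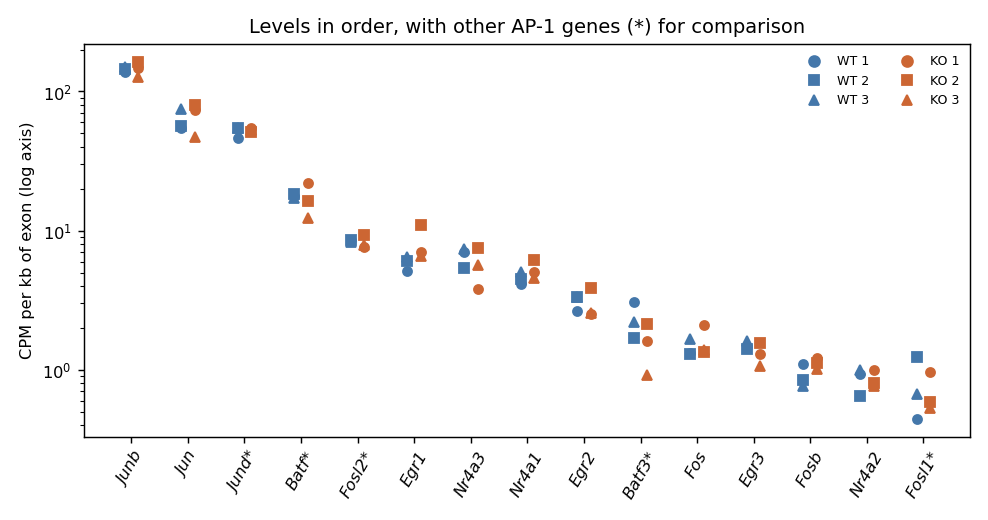
Level of each gene in CPM per kb of exon on a log axis, in descending order of the mean, with a point for each of the 6 libraries (blue WT, orange KO, shape for the replicate number) and 5 further AP-1 genes marked by an asterisk. Junb and Jun lie at 47.3 CPM per kb or more in every library, whereas Fos, Egr3, Fosb and Nr4a2 lie between 0.647 and 2.09 CPM per kb with overlapping ranges.

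The comparison of KO with WT asks whether loss of MondoA alters these transcripts in stimulated CD8 T cells. None of the 10 genes passed the edgeR quasi-likelihood test after Benjamini-Hochberg adjustment over all 16439 genes tested, where 2 genes or 0.0122% were called. All 10 passed the filter on low counts. Of the 10, 6 were higher and 4 lower in KO, against 47.2% of all tested genes above 0, and their median log2 fold change was 0.064 against -0.016 over all genes. At an unadjusted p under 0.05 stood 1 of the 10, Egr1, against 10.8% of all genes in either direction and 5.05% higher in KO. DESeq2 called 0 of the 10, the smallest adjusted p being 0.195, against 1% of the genes to which it gave an adjusted p. The groups did not overlap for 1 of the 10, again Egr1, against 16.4% of all genes in either direction and 7.8% higher in KO.

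**Figure D2:**
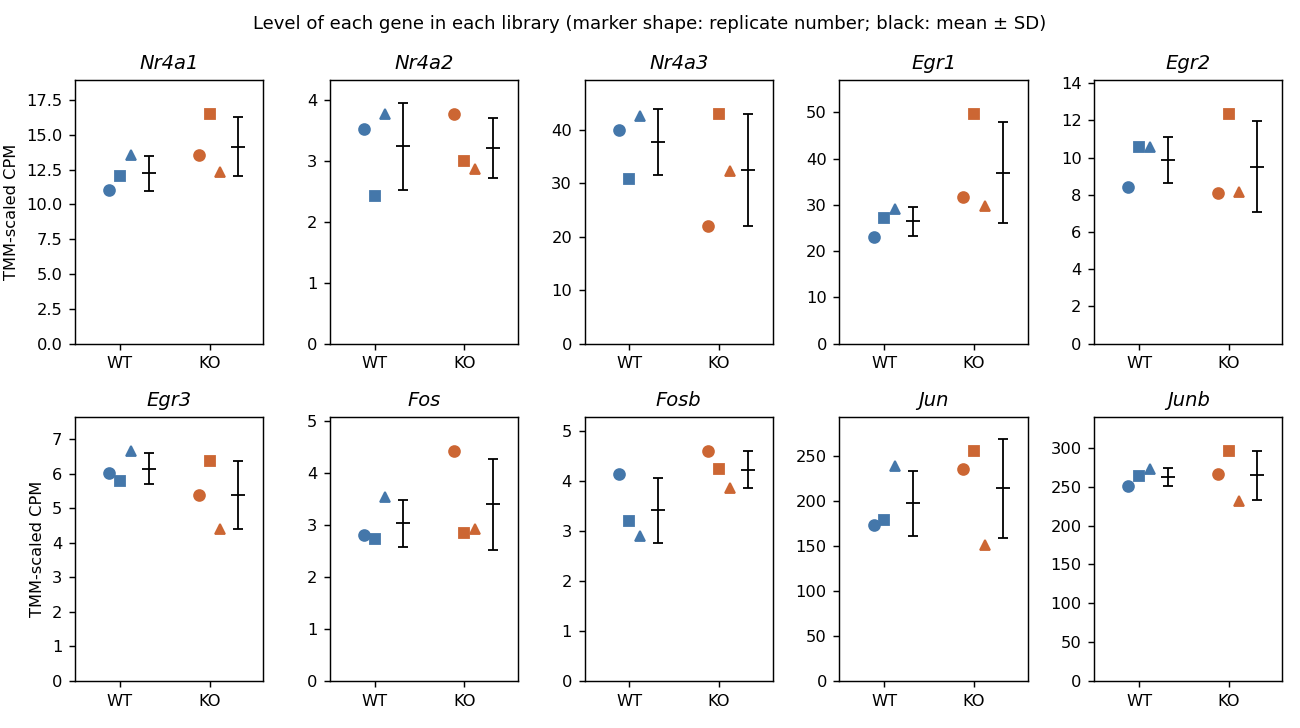
TMM-scaled CPM of each of the 10 genes in each library (linear axes from 0, blue WT, orange KO, circle, square and triangle for replicates 1 to 3), with the mean ± SD in black. Egr1 is the only gene of the 10 whose KO points all lie above its WT points, by a margin set by WT 3 at 29.2 CPM and KO 3 at 29.7 CPM.

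The NR4A genes had no common direction. Nr4a1 (ENSMUSG00000023034), which encodes NUR77, stood at 11.1, 12.1 and 13.6 CPM in the WT libraries, in order of replicate number as in all lists below, and at 13.6, 16.5 and 12.3 CPM in the KO libraries. KO 2 was highest and the groups overlapped. The log2 fold change was 0.21 (SE 0.147, 95% interval -0.12 to 0.54), with an adjusted p of 0.614 by the edgeR quasi-likelihood test, and 0.087 without KO 2. Nr4a2 (ENSMUSG00000026826), which encodes NURR1, was at 3.52, 2.42 and 3.76 CPM in WT and 3.76, 2.99 and 2.87 CPM in KO. Its groups overlapped almost wholly, with a log2 fold change of -0.012 and a 95% interval from -0.54 to 0.52. Nr4a3 (ENSMUSG00000028341), which encodes NOR1 and had the most reads of the family, was at 40.0, 30.8 and 42.6 CPM in WT and 22.0, 42.9 and 32.4 CPM in KO. KO 1 was the lowest library and KO 2 the highest, so KO spanned the whole WT range. The log2 fold change of Nr4a3 was -0.22 (SE 0.212, 95% interval -0.69 to 0.25), the lowest of the 10, with an adjusted p of 0.724 by the edgeR quasi-likelihood test. It was -0.0030 without KO 1 and -0.47 without KO 2. KO 1 was also the library in which Nr4a1 took the largest share of the summed NR4A level, 51.1% against 34.2% to 42.7% elsewhere.

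Egr1 had the largest estimate of the set. Egr1 (ENSMUSG00000038418), a zinc-finger factor driven by ERK signalling, was at 23.0, 27.1 and 29.2 CPM in WT and 31.7, 49.6 and 29.7 CPM in KO. The 3 KO libraries lay above the 3 WT libraries, but KO 3 exceeded WT 3 by little, and KO 2 stood far above all the others. The means were, WT before KO, 26.4 ± 3.14 and 37.0 ± 11.0 CPM (SD, n = 3 each). The log2 fold change was 0.49 (SE 0.185, 95% interval 0.076 to 0.90). The edgeR quasi-likelihood test gave an unadjusted p of 0.0247 and a Benjamini-Hochberg adjusted p of 0.401, so it did not pass. Without a filter on low counts the same test gave Egr1 an adjusted p of 0.00708 at a log2 fold change of 0.49, in a setting that called 1.76% of 29109 genes. Without KO 2 the log2 fold change was 0.22. Over its 13 alternatives the adjusted p ran from 0.00708 to 0.847.

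Egr2 and Egr3 did not share this direction. Egr2 (ENSMUSG00000037868) was at 8.42, 10.6 and 10.6 CPM in WT and 8.07, 12.3 and 8.13 CPM in KO, with KO 2 highest and the groups overlapping. Its log2 fold change was -0.051 (95% interval -0.48 to 0.38). Egr3 (ENSMUSG00000033730) was at 6.01, 5.78 and 6.64 CPM in WT and 5.37, 6.35 and 4.39 CPM in KO, with KO 3 lowest. Its log2 fold change was -0.19 (95% interval -0.60 to 0.22), or -0.064 without KO 3 and -0.33 without KO 2.

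**Figure D3:**
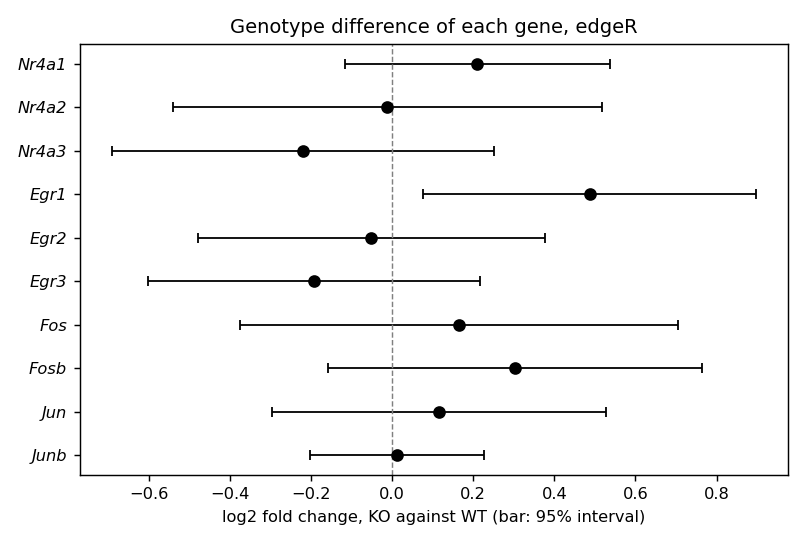
Log2 fold change of KO against WT for each of the 10 genes (points) with its 95% interval from the edgeR fit (bars). The interval of Egr1, from 0.076 to 0.90, is the only one of the 10 that lies wholly above 0, and the other 9 include 0.

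The ratio of Egr1 to Egr2 varied little within each group. In CPM per kb it was 1.94, 1.82 and 1.96 in the WT libraries and 2.79, 2.86 and 2.59 in the KO libraries, without overlap. On the log2 scale that is 0.929 ± 0.0599 in WT and 1.46 ± 0.0734 in KO (SD, n = 3 each), a difference of 0.53 that ran from 0.49 to 0.57 with any 1 library left out. KO 2, the library with the most Egr1, also had the most Egr2, and its ratio lay with those of KO 1 and KO 3. The ratio of Egr1 to Egr3 was 3.50, 4.29 and 4.02 in WT and 5.40, 7.15 and 6.19 in KO, a log2 difference of 0.66 (0.56 to 0.76 with any 1 library left out). Egr2 over Egr3 overlapped between the groups, with a log2 difference of 0.13. Egr1 made up 55.5% to 56.8% of the summed EGR level in WT and 64.6% to 67.1% in KO. These ratios were singled out after their values were seen, as 2 of the 45 pairs among the 10 genes, and 9 of the 45 (20%) had groups that did not overlap, 5 of them with Egr1, against 15.3% of all pairs among the 16277 tested genes with reads in every library. No test is given for them. Egr2 held 251 to 404 reads per library, so read counting alone adds spread to each ratio. That spread was not computed, and the small SDs and narrow leave-out ranges may in part be luck of the choice. The pairs share genes and libraries. Scaling between libraries does not enter a ratio of genes within a library, and the exon lengths do not enter the difference between groups.

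**Figure D4:**
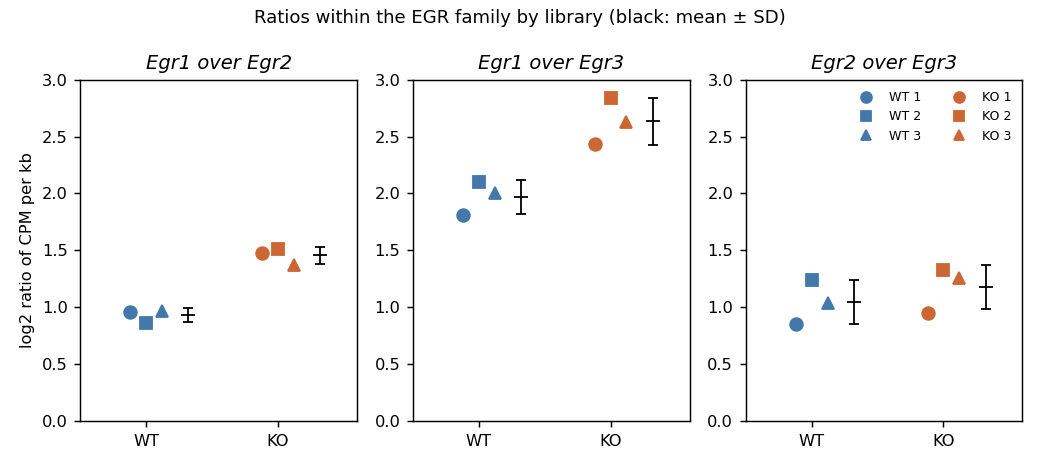
Log2 ratio of CPM per kb for each pair of EGR genes in each library (blue WT, orange KO, shape for the replicate number), with the mean ± SD in black. Egr1 over Egr2 lies between 0.860 and 0.970 in WT and between 1.37 and 1.51 in KO, whereas Egr2 over Egr3 overlaps.

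The 4 AP-1 genes of the set overlapped between the groups, and each interval included 0. Fos (ENSMUSG00000021250) was at 2.81, 2.73 and 3.54 CPM in WT and 4.41, 2.84 and 2.93 CPM in KO, with KO 1 alone standing above WT 3. Its log2 fold change was 0.16 (95% interval -0.38 to 0.71). Fosb (ENSMUSG00000003545) was at 4.15, 3.20 and 2.91 CPM in WT and 4.60, 4.24 and 3.86 CPM in KO, where WT 1 lay within the KO range. Its log2 fold change was 0.30 (95% interval -0.16 to 0.76). Jun (ENSMUSG00000052684) was at 174, 179 and 239 CPM in WT and 235, 255 and 151 CPM in KO, so that KO 3 was the lowest and KO 2 the highest of the 6. Its log2 fold change was 0.12 (95% interval -0.30 to 0.53). Junb (ENSMUSG00000052837) was the steadiest, at 250.3, 264 and 273 CPM in WT and 267, 295 and 231 CPM in KO. Its log2 fold change of 0.012 had a 95% interval from -0.20 to 0.23, or 0.869-fold to 1.17-fold, the narrowest of the 10.

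Spread between replicates was uneven across the set. The edgeR dispersion of Nr4a3 was 2.39 times the trend at its level, that of Jun 2.22 times and that of Egr1 1.83 times, and 97.3%, 96.7% and 94.6% of the tested genes had a lower ratio. The other 7 genes lay between 0.695 and 1.13 times the trend. The range over libraries was widest for Egr1, whose highest library held 2.16 times the lowest, and narrowest for Junb at 1.28 times.

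The libraries differed along the set as a whole. Relative to the mean of the 6 libraries, the mean log2 deviation of the 10 genes was -0.072, -0.13 and 0.098 for the WT libraries and 0.036, 0.23 and -0.16 for the KO libraries. Of the 10 genes 8 lay above their mean in KO 2 and 8 in WT 3, the libraries with high Xist, 7 did so in KO 1, and 1 in KO 3. Between these WT 3 and KO 2 libraries Egr1 was higher in KO by 0.76 on the log2 scale, and among the other 4 by 0.30. A term for these libraries, added after the data were seen, left Egr1 at a log2 fold change of 0.45, with an edgeR quasi-likelihood adjusted p of 0.251. The part of sex in the spread of the set was not tested otherwise.

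**Figure D5:**
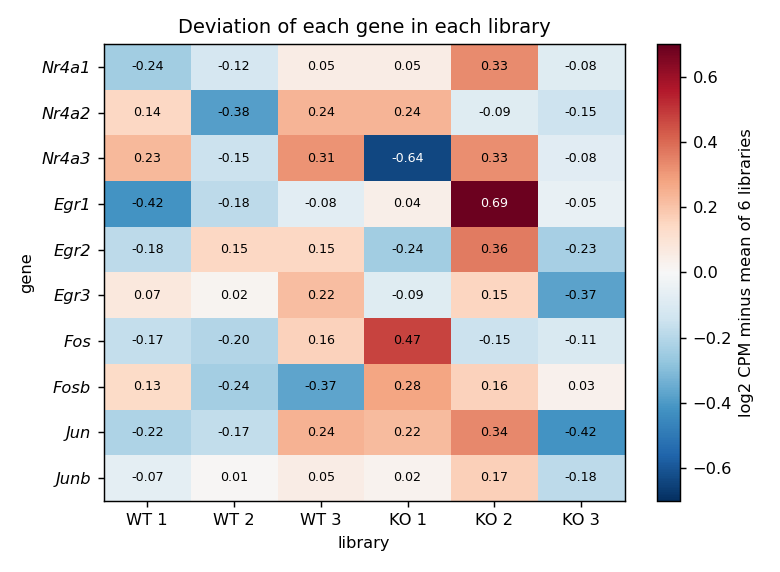
Log2 CPM of each gene (rows) in each library (columns) minus its mean over the 6 libraries, with the value printed in each cell and red for higher. KO 2 and WT 3 hold 8 positive cells of 10 each, KO 3 holds 1, and only the Egr1 row has its KO cells all above its WT cells.

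Several genes of the set varied together across libraries. Over the 6 libraries the Pearson r of log2 CPM was 0.96 for Nr4a1 with Egr1 (Spearman rho 0.94) and 0.91 for Jun with Junb (rho 1). Of the 45 pairs 35 had an r above 0, with a median of 0.22, or 0.35 after removal of the group means. The r of Fos with the other genes ran from -0.60 for Nr4a3 to 0.71 for Nr4a2, and that of Fosb from -0.40 for Egr2 to 0.30 for Egr1. These values share libraries and scaling and are given as a description. Among 9801 tested genes with a symbol and a mean of at least 5 CPM, the 5 nearest in Pearson r to the mean of the set were Dhx37 (0.99), Dcakd (0.98), Ccdc6 (0.98), A530040E14Rik (0.98) and Stat5a (0.98), over 6 libraries. As the highest of 9801 values over only 6 libraries, these are high by selection, and no background was computed for them. Stat5a, a signal transducer of the IL-2 family of cytokines, was at 119 to 144 CPM in WT and 120 to 155 CPM in KO.

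Upstream of the set, transcripts of the signalling cascade and its factors did not pass. Of 14 factors that act on immediate early promoters 8 were higher and 6 lower in KO, against 47.2% of all genes above 0. Their median log2 fold change was 0.061, with 0 called by edgeR or DESeq2. In each direction 1 had an unadjusted p under 0.05, against 10.8% of all genes in either direction. Srf, the CArG-box factor, was at 63.0, 73.4 and 72.7 CPM in WT and 66.2, 77.5 and 81.9 CPM in KO. Mef2d, which recruits histone deacetylases to the Nr4a1 promoter at rest, had 0.27, and Mrtfb, a cofactor of SRF, had -0.26, both in log2 fold change and both those under 0.05 unadjusted. Of 11 genes of the ERK cascade 6 were higher and 5 lower, with 0 called by edgeR or DESeq2. Against 10.8% of all genes, 1 of the 11 had an unadjusted p under 0.05. This was Rasgrp1, the exchange factor that couples the receptor to RAS, at 134, 135 and 123 CPM in WT and 155, 152 and 151 CPM in KO. Its groups did not overlap, at a log2 fold change of 0.22 and an adjusted p of 0.376 by the edgeR quasi-likelihood test. Of the 11 genes, 2 more had groups that did not overlap, both lower in KO, against 16.4% of all genes in either direction.

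Partners and feedback genes of the set gave the same picture of small, uncalled differences. Nab2, an EGR target that encodes a corepressor of EGR proteins, was at 22.6, 30.6 and 25.1 CPM in WT and 32.6, 35.1 and 32.5 CPM in KO. Its groups did not overlap, with a log2 fold change of 0.36 (SE 0.122) and an adjusted p of 0.379 by the edgeR quasi-likelihood test. Nab1 had 0.072 and Rxra, a dimer partner of NR4A receptors, had -0.21 in log2 fold change. The groups of Rxra did not overlap either, with KO below WT. Of the 4 such partners tested, 1 higher and 1 lower gene thus did not overlap, against 16.4% of all genes. Of the 6 genes listed as such partners, Egr4 and Rxrg were not tested, with 2 reads for Egr4 in KO 2 and 0 reads in the other libraries, and 0 reads for Rxrg throughout. Of 12 AP-1 and ATF partners 4 were higher and 8 lower, against 47.2% of all genes above 0, with 0 called by edgeR or DESeq2. In each direction 1 had an unadjusted p under 0.05, against 10.8% of all genes in either direction. These were Mafk and Maff, small MAF factors, which pointed in opposite directions with log2 fold changes of 0.27 and -0.44. Each was without overlap of the groups, against 16.4% of all genes.

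Of 23 other immediate early genes 11 were higher and 12 lower, with 0 called by edgeR and 1 (Per1) by DESeq2. At an unadjusted p under 0.05 stood 3 higher and 2 lower, against 10.8% of all genes in either direction. The groups did not overlap for 3 higher and 3 lower genes of the 23, against 16.4% of all genes. Per1, a clock gene that is also a rapid CREB target, was at 24.9, 26.5 and 29.1 CPM in WT and 36.9, 40.3 and 32.5 CPM in KO. The edgeR quasi-likelihood test gave Per1 a log2 fold change of 0.45 and an adjusted p of 0.330, and DESeq2 an adjusted p of 0.0443. Sik1, a salt-inducible kinase and likewise a CREB target, had a log2 fold change of 0.39, and Ier2 of 0.25, both with groups that did not overlap. Pim1, a kinase induced by cytokines through STAT5, was lower in the 3 KO libraries (451 to 513 CPM) than in the 3 WT libraries (565 to 622 CPM), with a log2 fold change of -0.31 and an adjusted p of 0.330 by the edgeR quasi-likelihood test.

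Factors that bind AU-rich elements and decay machinery had 10 of 10 genes higher in KO, against 47.2% of all genes, with a median log2 fold change of 0.12. Of these 10, 0 were called by edgeR or DESeq2. At an unadjusted p under 0.05 stood 3, against 5.05% of all genes higher in KO at that threshold. Zfp36l1, which directs AU-rich messengers to decay, was at 203, 233 and 219 CPM in WT and 259, 272 and 240 CPM in KO, a log2 fold change of 0.23. Zfp36, itself an immediate early gene, had 0.14. The list mixes binding factors and decay machinery, and the decay of messengers was not measured. Heat shock genes, which rise with handling stress, were higher in 7 of 8, against 47.2% of all genes, with a median log2 fold change of 0.26. Of these 8, 3 were higher at an unadjusted p under 0.05, again against 5.05% of all genes. Dnajb1, a cochaperone of HSP70, was at 151, 211 and 142 CPM in WT and 273, 228 and 226 CPM in KO, and DESeq2 alone called it, with an adjusted p of 0.0405 against 0.341 by the edgeR quasi-likelihood test. Their part in the levels of the set was not tested.

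Downstream, genes linked to EGR2, EGR3 and NR4A in T cells were 8 higher and 11 lower of 19, with a median log2 fold change of -0.029, 0 called by edgeR and 1 by DESeq2. Tnfrsf9, the 4-1BB gene, had 0.21 and Cblb, a ubiquitin ligase of anergic T cells, had 0.17, neither under 0.05 unadjusted. Under that threshold were 2 higher and 3 lower of the 19, against 10.8% of all genes in either direction. The higher were Dgkz (log2 fold change 0.18) and Tox2 (0.45), and the lower were Sema7a (-0.48), Havcr2 and Fasl. Havcr2, the TIM-3 gene, was called by DESeq2 alone (adjusted p = 0.0462, against 0.365 by the edgeR quasi-likelihood test), with WT 3 at 11.9 CPM against 2.89 and 6.76 CPM in the other WT libraries and 2.70 to 3.08 CPM in KO. Fasl, the death ligand, was lower in the 3 KO libraries (2.93 to 6.85 CPM) than in the 3 WT libraries (8.08 to 10.6 CPM), with an adjusted p of 0.392 by the edgeR quasi-likelihood test. Of the 19, 3 genes higher in KO and 1 lower, Fasl, had groups that did not overlap, against 16.4% of all genes in either direction. Activation read-outs were 5 higher and 6 lower of the 11 tested, against 47.2% of all genes above 0, with 0 called by edgeR or DESeq2. In each direction 1 had an unadjusted p under 0.05, against 10.8% of all genes in either direction. Il2 had 1 read in WT 1, 1 in KO 1 and 0 in the other 4 libraries, where 3 reads would have been 0.115 CPM in the shallowest library. Irf4, induced in proportion to receptor signal strength, was at 187, 158 and 202 CPM in WT and 165, 210 and 122 CPM in KO, with KO 2 high and KO 3 low as for Jun and Junb.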

How the data were processed

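Per the labels, RNA was isolated by Trizol and sequenced from Vazyme mRNA libraries. Raw read counts per Ensembl gene were deposited for 6 libraries, with no normalization. The submitters' processing notes name HISAT2, Subread with featureCounts, and GRCm39; versions and strand setting: not given in the sources used here. Antisense reads therefore cannot be told apart. Symbols for 52029 of 57010 identifiers, exon lengths and untranslated regions came from GENCODE M21 on GRCm38, and promoters from RefSeq on GRCm38.p6. These coordinates were not joined to the counts.

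The tools were R 4.3.3, DESeq2 1.42.0 and edgeR 4.0.16. A filter by filterByExpr (minimum count 10, total 15) preceded TMM scaling. Genes were tested by the two-sided edgeR quasi-likelihood test of KO against WT with genotype as the only term, at a Benjamini-Hochberg adjusted p of 0.05. Intervals use the standard error implied by the F statistic. The procedure was tested on simulated data. Log2 CPM for correlations used a prior count of 2.

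The genes of the set and the lists were chosen with earlier results of these data known. Named were the 10 genes, Mlxip as a check of the labels (Txnip and Arrdc4, the 2 genes called, were the others), up to 4 genes of smallest p per pathway list, up to 3 most abundant per marker list, and the 5 nearest in correlation. Srf, Zfp36, Tnfrsf9, Cblb, Sema7a, Irf4, Il2, Jund, Fosl1, Fosl2 and Batf were named from the lists after their values were seen. In the label check Txnip was at 214 to 232 CPM in WT and 73.8 to 80.4 CPM in KO, and Arrdc4 at 29.0 to 36.9 and 2.87 to 4.28 CPM. Summed marker CPM in WT and KO was 13.0 to 25.5 and 9.33 to 14.9 for CD4 T cells, 61.7 to 78.0 and 59.9 to 70.5 for NK cells, and 1.37 to 4.76 and 1.70 to 3.97 for erythroid cells, with Pf4 and Ppbp at 0 reads. Most of the NK sum was Nkg7, at 51.9 to 68.2 CPM in WT and 54.2 to 67.2 CPM in KO. Replicates were not copies of one library: over 12177 genes the chi-square per gene was 16.0 to 40.4 within groups. Alternatives were DESeq2, no filter, a mean of at least 5 CPM, library size only, the replicate block, each library left out and, added later, a term for Xist-high libraries or their removal.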

Additional observations from a re-analysis of the deposited data

How the results depend on the processing

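The count of called genes was 2 as reported, 136 with DESeq2, 511 without a filter on low counts, 6 with the term for Xist-high libraries added after the data were seen, and 2 to 80 with 1 library left out, 80 being without KO 3. The median log2 fold change of the 10 genes lay between -0.010 and 0.18 over the 13 alternatives, and with 1 library left out 5 to 8 of the 10 were higher in KO. At a mean of at least 5 CPM 7 genes of the set were tested and 3 were higher. No gene of the set was called in any alternative other than Egr1 without a filter. Signs turned where values were near 0. Nr4a2 was 0.0028 with DESeq2, 0.0014 with the replicate block and 0.15 without the 2 Xist-high libraries. Junb was -0.010 under the 5 CPM minimum, -0.056 with library size only and -0.045 without the 2 Xist-high libraries. With 1 library left out the log2 fold change ran from -0.18 to 0.11 for Nr4a2, -0.073 to 0.10 for Junb, -0.28 to 0.055 for Egr2, -0.065 to 0.29 for Fos and -0.028 to 0.32 for Jun, and without a change of sign from -0.47 to -0.0030 for Nr4a3, 0.087 to 0.30 for Nr4a1, -0.33 to -0.064 for Egr3, 0.20 to 0.47 for Fosb and 0.22 to 0.63 for Egr1, and the cause was not tested. The replicate block left the count at 2 and changed no call. Same-numbered libraries correlated at 0.082, -0.53 and -0.18 in their deviations from the group means over 9866 genes. Deviations from a group mean cancel within the group, so such values must mix in sign. They do not show a pairing by number and cannot exclude one. Higher values stood across numbers, 0.69 for WT 3 with KO 2, the Xist-high libraries, and 0.56 for WT 2 with KO 1. The rest across numbers ran from -0.54 for WT 3 with KO 1 to 0.29 for WT 1 with KO 3. The cause of this spread shared across genotypes was not tested.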
